A study of Mus musculus with 18 samples.

Results

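The accessibility of chromatin was examined at 10 genes for mechanosensitive ion channels in the mouse retina: Piezo1, Piezo2, Trpv1, Trpv2, Trpv4, Trpc1, Kcnk2, Kcnk4, Kcnk10 and Panx1. The genes were chosen by name, as channels that open when a membrane is stretched or that release ATP from strained cells, and a peak was assigned to a gene when it overlapped the window from 10 kb upstream of the gene's start to its end (GENCODE M21 annotation, mm10). They make up 10 of 21911 protein-coding genes, and their windows held 45 of the 73567 consensus regions, which are overlapping peaks merged over the libraries and called in at least 2 of them, along with 21 regions that were called in 1 library only. A region counts as called in a library when that library's list holds a peak that overlaps it. ATAC-seq, in which a transposase cuts accessible DNA and inserts sequencing adapters, was carried out on bulk retinas of wild-type mice in 18 libraries. The 6 groups held 3 libraries each: at 3 months (3mo) and at 18 months (18mo) of age, retinas of eyes in which intraocular pressure (IOP) was held at 30 mmHg during 1 h, retinas of the contralateral eyes, which were not pressurized, and retinas of untreated animals. Treated and contralateral eyes are dated day 2 after IOP in the labels, whereas the study's text gives another day. A treatment text common to all samples also names dasatinib with a vehicle arm, and no label places a library in either arm. The contralateral eye belonged to an animal that went through the procedure, which limits it as an untreated control. The labels do not say whether replicates came from separate animals, while the study's text calls its ATAC-seq replicates biological, and the p-values below measure the spread between these libraries.

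Mechanosensitive channels turn force on the membrane into ion flow. The Piezo proteins form large stretch-gated cation channels, the TRP channels pass calcium and are often gated by further stimuli such as heat, swelling or lipids, and the K2P channels TREK-1 (Kcnk2), TRAAK (Kcnk4) and TREK-2 (Kcnk10) let potassium out of the cell when it is stretched. Pannexin 1 (Panx1) forms a large pore through which ATP leaves stretched cells, and ATP then acts on purinergic receptors of neighbouring cells. In the eye these channels have been studied in retinal ganglion cells, Müller glia and the optic nerve head, where raised pressure strains the tissue.

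A library listed between 36011 and 66160 peaks. The shortest listed peak measured 79 to 89 bp in the 6 untreated libraries and 114 to 157 bp in the other 12, and the median peak width was 161 to 192 bp and 264 to 395 bp, respectively, so that untreated animals and technical measures of the lists cannot be told apart. Of 18 retina marker genes, 10 had a called promoter in all 18 libraries, among them the rod gene Nrl, 6 had it in some libraries, and Grm6 and Slc17a6 had it in none. The promoters of 3 of 4 microglial markers, 2 of 4 vessel markers, 3 of 4 pigment epithelium markers and 3 of 3 lens or cornea markers were called in no library, and those of Alb, Ins2 and Myh6, genes of liver, pancreas and heart, likewise. Kdr and Mitf were called in 18 libraries, Pdgfrb in 9 and Tmem119 in 2. Over all protein-coding genes, promoters were called in 18 libraries for 47.6% and in none for 42.9%. The retina list, at 55.6% and 11.1%, was not tested against these shares, and lists of 3 or 4 genes are too short to compare with them. In bulk retina, fewer cells of a type and less open chromatin per cell cannot be told apart.

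The promoters that follow are shown because they span the range found among the channel genes, from a call in every library to a call in none. Each is the 250 bases before a gene start in the RefSeq annotation (build GRCm38.p6), written 5′ to 3′ on the strand of the gene, with every CpG dinucleotide in capitals. CpG-dense promoters are commonly open in most tissues, and CpG-poor ones are more often used by a single cell type.
Trpc1 promoter, chr9:95750349-95750598, minus strand: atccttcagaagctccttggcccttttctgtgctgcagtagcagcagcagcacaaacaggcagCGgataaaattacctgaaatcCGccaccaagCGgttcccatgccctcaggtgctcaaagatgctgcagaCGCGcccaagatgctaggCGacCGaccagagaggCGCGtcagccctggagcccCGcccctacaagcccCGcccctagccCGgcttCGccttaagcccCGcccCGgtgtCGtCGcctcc
Piezo1 promoter, chr8:122551330-122551579, minus strand: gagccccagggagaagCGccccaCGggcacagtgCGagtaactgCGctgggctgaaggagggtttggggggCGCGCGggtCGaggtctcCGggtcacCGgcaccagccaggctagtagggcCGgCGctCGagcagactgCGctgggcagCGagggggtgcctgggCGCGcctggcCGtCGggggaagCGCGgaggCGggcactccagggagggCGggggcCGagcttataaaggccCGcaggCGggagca
Panx1 promoter, chr9:15045479-15045728, minus strand: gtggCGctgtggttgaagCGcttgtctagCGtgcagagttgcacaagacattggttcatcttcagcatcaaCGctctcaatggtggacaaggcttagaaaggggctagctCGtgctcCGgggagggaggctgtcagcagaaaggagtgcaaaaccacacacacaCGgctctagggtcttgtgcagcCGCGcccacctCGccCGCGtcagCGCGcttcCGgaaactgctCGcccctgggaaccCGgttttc
Trpv4 promoter, chr5:114658422-114658671, minus strand: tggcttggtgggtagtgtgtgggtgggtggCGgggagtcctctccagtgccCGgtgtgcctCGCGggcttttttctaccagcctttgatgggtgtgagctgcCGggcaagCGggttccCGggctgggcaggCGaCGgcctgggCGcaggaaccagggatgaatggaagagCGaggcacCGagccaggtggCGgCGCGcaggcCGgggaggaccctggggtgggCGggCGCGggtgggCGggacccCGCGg
Trpv1 promoter, chr11:73233899-73234148, plus strand: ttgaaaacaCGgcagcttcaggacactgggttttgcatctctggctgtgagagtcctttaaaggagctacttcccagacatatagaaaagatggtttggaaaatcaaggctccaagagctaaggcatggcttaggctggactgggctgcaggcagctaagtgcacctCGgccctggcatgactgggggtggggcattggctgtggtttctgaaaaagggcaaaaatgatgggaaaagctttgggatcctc
These sequences hold 17 CpG at Trpc1, 26 at Piezo1, 17 at Panx1, 22 at Trpv4 and 2 at Trpv1. A listed peak overlapped these bases in 18 libraries at Trpc1, in 16 at Piezo1, in 11 at Panx1, in 3 at Trpv4 and in 0 at Trpv1. Trpv4 thus had more CpG than Trpc1 and a peak in far fewer libraries.

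The regions outside promoters that follow are those of Trpv4, Panx1, Trpc1 and Kcnk4 with calls in 3 of 3 libraries of one group against 0 of 3 of another, and the strongest region of Trpv4. Each is 201 bases on the plus strand, centred on the median summit. Capitals mark any match, on either strand, to TAATCC (bound by the photoreceptor factors Crx and Otx2), TAATTA (other homeodomain factors), TGANTCA (AP-1), CACGTG (E-box factors), GGGCGG (the GC box of Sp factors) or AGNNGGCNC, a stretch of the consensus of the insulator protein CTCF. AGNNGGCNC was added after these sequences had been read.
Trpv4 intron region, chr5:114625705-114625905, plus strand: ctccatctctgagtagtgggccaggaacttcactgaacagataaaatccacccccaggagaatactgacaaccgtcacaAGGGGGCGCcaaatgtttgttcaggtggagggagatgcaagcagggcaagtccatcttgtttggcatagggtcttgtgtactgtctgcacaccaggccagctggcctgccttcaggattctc
Panx1 intron region, chr9:15015635-15015835, plus strand: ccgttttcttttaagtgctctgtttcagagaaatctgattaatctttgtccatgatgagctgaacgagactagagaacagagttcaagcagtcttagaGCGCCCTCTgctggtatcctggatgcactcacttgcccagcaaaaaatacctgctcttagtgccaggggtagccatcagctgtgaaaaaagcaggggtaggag
Trpc1 intron region, chr9:95709006-95709206, plus strand: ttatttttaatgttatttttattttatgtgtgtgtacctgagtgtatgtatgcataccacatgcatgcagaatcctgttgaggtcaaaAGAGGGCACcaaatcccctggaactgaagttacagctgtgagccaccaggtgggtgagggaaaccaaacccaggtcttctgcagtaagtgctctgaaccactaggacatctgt
Kcnk4 intron region, chr19:6933781-6933981, plus strand: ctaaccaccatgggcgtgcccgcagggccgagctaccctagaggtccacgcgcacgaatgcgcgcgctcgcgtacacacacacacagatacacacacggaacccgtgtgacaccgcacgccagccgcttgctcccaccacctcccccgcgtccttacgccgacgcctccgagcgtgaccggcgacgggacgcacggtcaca
Trpv4 upstream region, chr5:114667590-114667790, plus strand: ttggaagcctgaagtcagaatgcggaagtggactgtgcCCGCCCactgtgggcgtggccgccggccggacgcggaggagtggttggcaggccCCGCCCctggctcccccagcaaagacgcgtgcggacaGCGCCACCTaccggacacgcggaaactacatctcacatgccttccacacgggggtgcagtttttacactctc
AGNNGGCNC lay in the intron regions of Trpv4, Panx1 and Trpc1 and in the upstream region of Trpv4, and the intron region of Kcnk4 held none of the 6 motifs. The Piezo2 region that is not shown held TAATCC and no other of these motifs. Of the 5 channel regions with such calls, 3 thus held AGNNGGCNC. Over all regions of the channel genes, 16 of 45 (35.6%) held AGNNGGCNC, beside 21.9% of the 73449 consensus regions whose sequence was read. The 45 include the regions that had been read before this motif was added, so their share cannot measure an excess. Among the 6656 regions of the series that were called in 3 of 3 libraries of one group and 0 of 3 of another, the share was 19.4%. It was 25.5% in the 1642 regions called in the 18mo contralateral and not in the 18mo IOP libraries, 23.8% in those called in the 18mo contralateral and not in the 18mo untreated libraries, and 15.2% in those called in the 18mo and not in the 3mo untreated libraries. In regions called in all 18 libraries it was 24.8%, and none of these shares was tested. TAATCC was found in 6 of 45 channel regions (13.3%) and in 15.4% of all regions, GGGCGG in 10 of 45 (22.2%) and in 18.8%, and TGANTCA in 1 of 45 (2.22%) and in 6.62%. TAATTA and CACGTG were in 0 of 45 channel regions, beside 4.16% and 5.02% of all regions. In the 250 bases of 32851 promoters, 6.25% held TAATCC, 4.84% TAATTA, 6.75% TGANTCA, 6.02% CACGTG, 32.7% GGGCGG and 17.6% AGNNGGCNC, and of the 15 promoters of the channel genes 6 held GGGCGG, 2 AGNNGGCNC, 1 TGANTCA and 0 the other motifs. A match is a description of the letters and was not tested as a binding site.

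Few of the channel genes had a promoter that was open in every retina. A promoter was counted as called when a region had its median summit between 1 kb upstream and 100 bp downstream of one of the gene's starts. By this rule Trpc1 and Trpv2 were called in all 18 libraries, Piezo1 in 17, Piezo2 in 5, Kcnk10 in 5, Trpv4 in 4 and Kcnk2 in 1, and Trpv1, Kcnk4 and Panx1 in 0. A promoter was called in all 18 libraries for 47.6% of protein-coding genes and in 0 for 42.9%, beside 2 and 3 of the 10 channel genes. Panx1 missed the rule narrowly, since the summit of its start region lay at 128 bp, and with 2.5 kb on either side of a start Panx1 was called in 14 libraries, Kcnk4 in 13, Kcnk10 in 7 and Trpv4 in 5, and Piezo1, Piezo2, Trpv1, Trpv2, Trpc1 and Kcnk2 as before.

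CpG number and calling did not go together for several of these promoters. RefSeq lists 15 promoters of 9 of the genes. Of the 4 with 20 CpG or more in their 250 bases, 1 at Piezo1, 1 at Trpv4 and 2 at Kcnk2, 0 had a peak in all 18 libraries. They were overlapped by a peak in 16 libraries at Piezo1, 3 at Trpv4 and 1 at each of the Kcnk2 starts. Of all 5896 RefSeq promoters with that many CpG, 84.4% had a peak in all 18 libraries and 3.24% in none. At the other end, the second start of Trpv2, with 5 CpG, was overlapped in 18 libraries, which held for 22.4% of the 5843 promoters with 5 to 9 CpG. The 6 channel promoters with up to 4 CpG were overlapped in 0 libraries, as were 91.1% of promoters in that class.

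**Figure D1:**
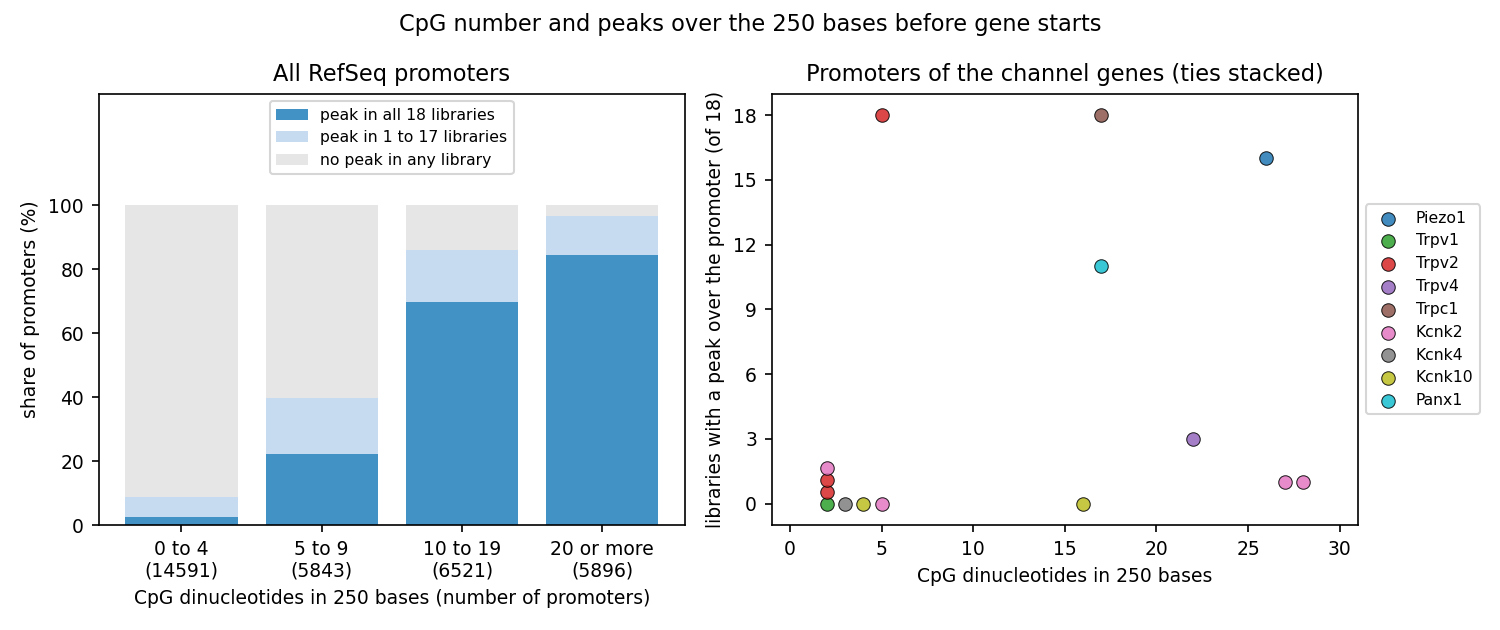
Left, share (%) of all RefSeq promoters with a peak in all 18 libraries, in 1 to 17 or in none, by the number of CpG dinucleotides in the 250 bases before the start (number of promoters in parentheses). Right, each of the 15 promoters of the channel genes by its CpG number and the libraries (of 18) with a peak over it, where points at the same place are stacked upward from 0; Trpv4 with 22 CpG and Kcnk2 with 27 and 28 sit at 3, 1 and 1 libraries, while Trpc1 with 17 sits at 18.

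The windows differed widely in how many peaks they held, and Piezo2, with the longest window (387 kb), alone accounted for 243 listed peaks over the 18 libraries. Piezo2 had 9 to 19 peaks in a library, Trpv4 4 to 7, Trpc1 2 to 7, Piezo1 1 to 4, Kcnk4 1 to 3, Trpv2 1 to 3, Panx1 0 to 5 and Kcnk10 0 to 2. Kcnk2 had 2 peaks in 3mo contralateral replicate 2 and 0 in the other 17 libraries, and Trpv1 had 0 in all. A window without a peak in any library was found for 22% of protein-coding genes and for 1 of the 10 channel genes. Per 100 kb of window the median over the channel genes was 3.45 peaks, beside 3.92 over all protein-coding genes. Summed over the 10 windows, a library listed 31.7 ± 4.04 peaks (SD, n = 3) in 3mo untreated retinas, 31.3 ± 9.29 in contralateral and 30.0 ± 5.29 in IOP retinas of that age, and 35.3 ± 2.31 in untreated, 33.0 ± 1.73 in contralateral and 26.7 ± 5.51 in IOP retinas at 18mo. The 18mo IOP libraries held 32, 27 and 21 peaks and the 18mo contralateral libraries 34, 31 and 34, so these groups overlapped. The 18mo untreated libraries held 34, 34 and 38, all above the 18mo IOP libraries, a difference that was not tested. As a share of all peaks of the library, the windows held 0.0657, 0.0554 and 0.0583% in the 18mo IOP libraries. The shares were 0.0560, 0.0606 and 0.0593% in 18mo contralateral and 0.0630, 0.0672 and 0.0711% in 18mo untreated libraries. By share, the 18mo IOP libraries overlapped both other groups.

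**Figure D2:**
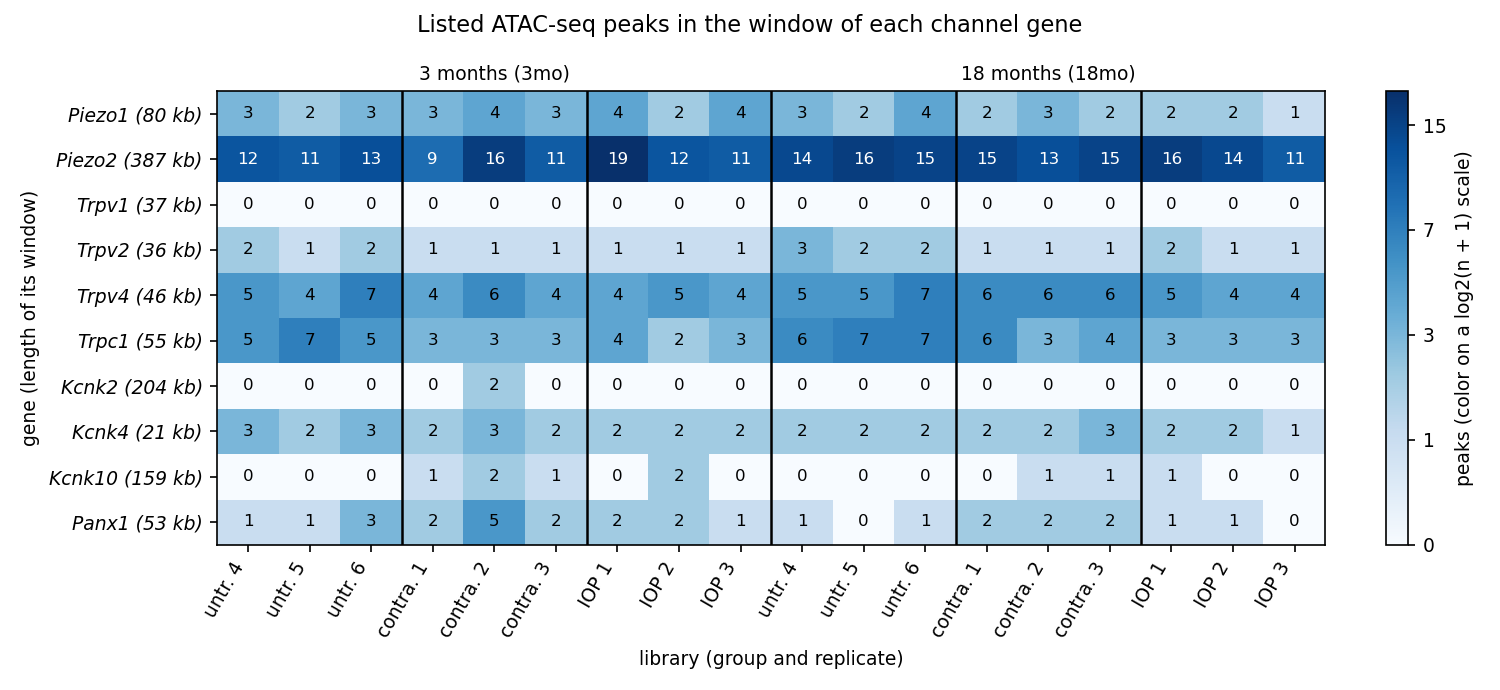
Number of listed peaks (printed in each cell, color on a log2(n + 1) scale) in the window of each channel gene (rows, with the window length in kb) for each of the 18 libraries (columns, grouped by age and treatment). Piezo2 holds 9 to 19 peaks in every library, Trpv1 none, and Kcnk2 2 peaks in 1 library.

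Of the 45 regions, 32 lay in introns, 7 at promoters, 3 in exons and 3 upstream, and 25 lay over 10 kb from the nearest start of their gene. The channel regions were called in a median of 14 libraries and 14 of 45 (31.1%) in all 18, beside a median of 12 and 33.6% for all consensus regions. Their median width of 405 bp equalled that of all regions. The 21 regions called in 1 library only ranked at a median percentile of 6.00 among the peaks of their library, where the peak with the lowest q-value is at 100, and the 45 regions at a median of 35.6.

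**Figure D3:**
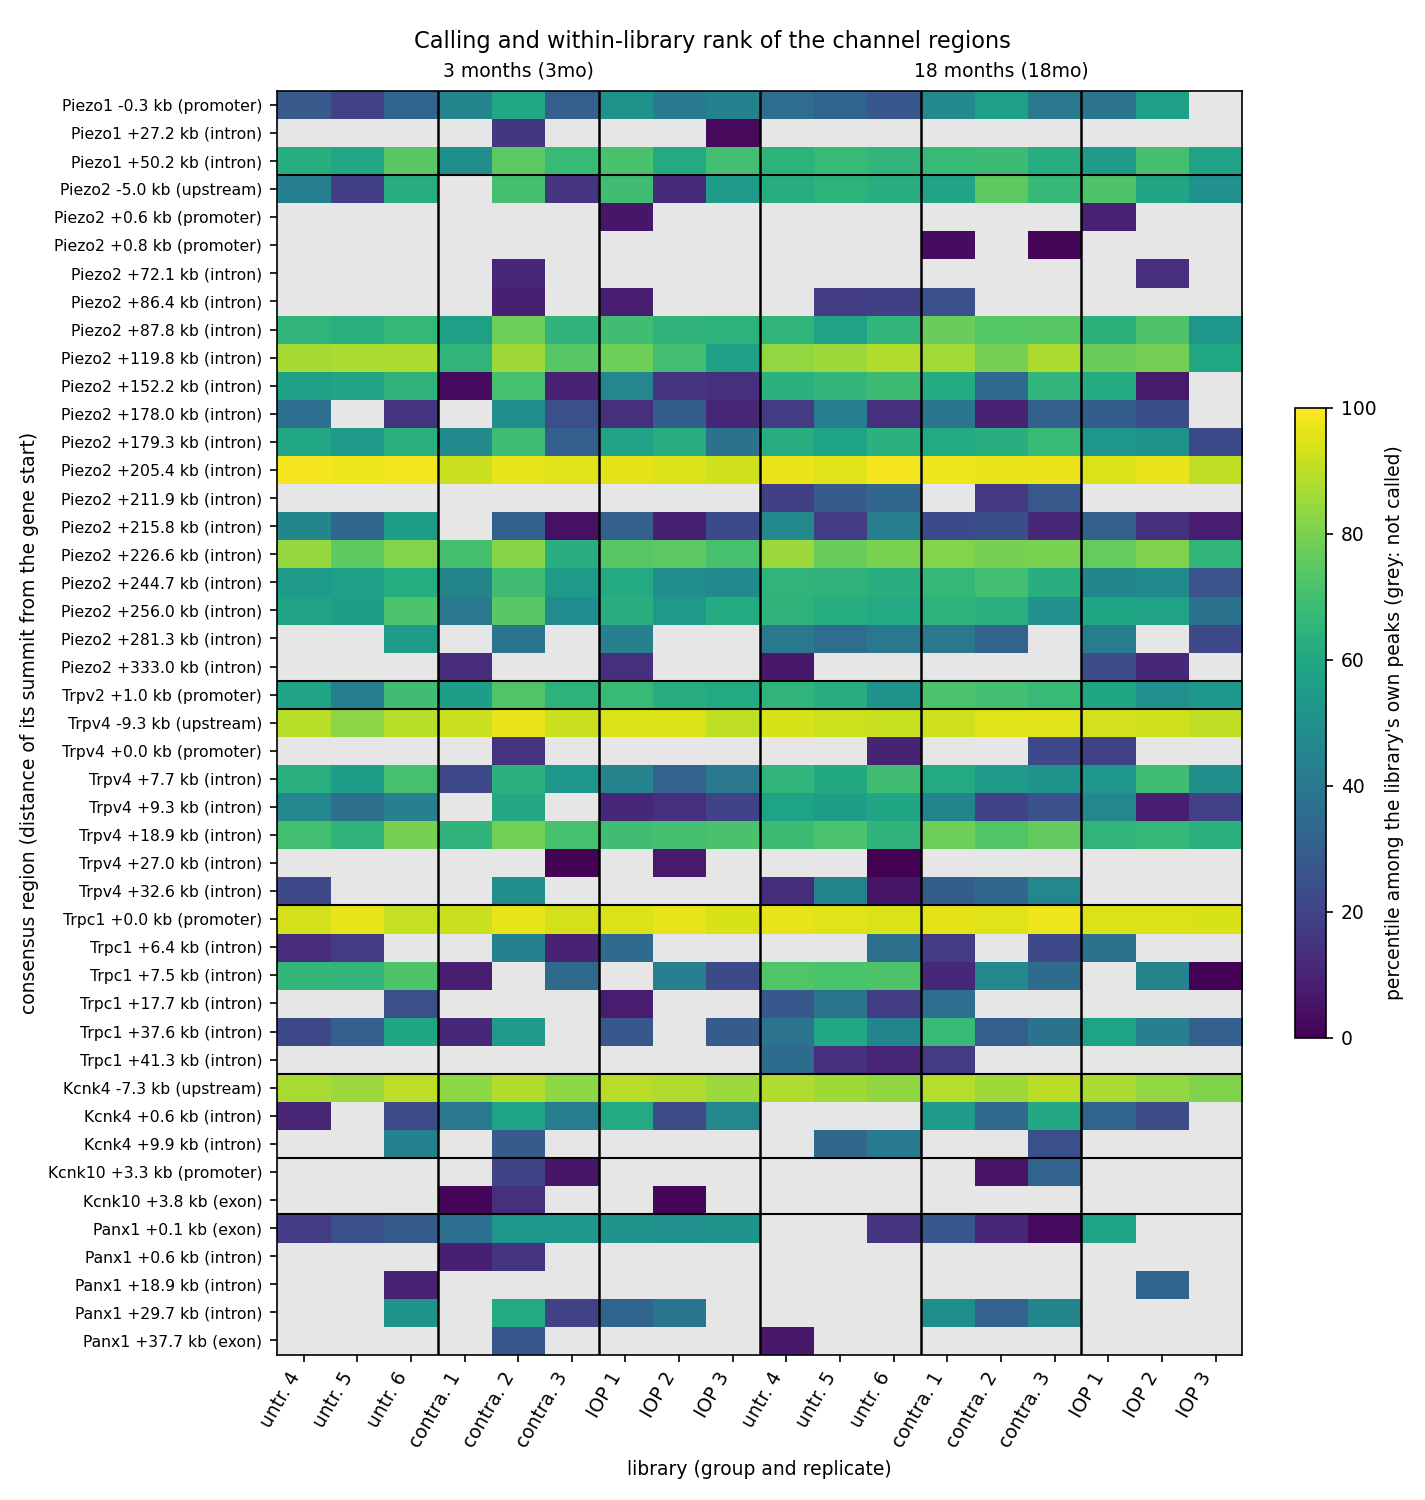
Each row is 1 of the 45 regions, labelled with its gene, the distance of its summit from the gene start (kb) and its place, and each column a library. Color gives the percentile of the region among all peaks of that library by −log10 q-value and grey marks a region that was not called; the Trpc1 promoter, the Trpv4 region upstream of the start and the Piezo2 region 205388 bp past the start are near the top of the scale in every library, and the regions with grey cells are mostly dark where called.

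Of the Piezo genes, Piezo1 was called at its promoter and in an intron, and Piezo2 mostly far inside the gene. Piezo1 (ENSMUSG00000014444.17, chr8:122481698-122551329, minus strand) encodes the stretch-gated channel of endothelial and many other cells. Its promoter region (chr8:122550776-122551947) was called in 17 libraries, all but 18mo IOP replicate 3, at a percentile of 40.4 ± 11.6 (SD, n = 17) among the peaks of a library. An intron region (chr8:122500844-122501564) was called in all 18 at 65.1 ± 6.64. The summits of both regions also lie in the gene model Gm20388, which overlaps Piezo1, so the peaks cannot be assigned to one of them. Piezo2 (ENSMUSG00000041482.17, chr18:63010213-63387183, minus strand), the channel of touch and proprioceptive neurons, held 18 consensus regions, 7 of them called in all 18 libraries. The strongest, in an intron (chr18:63181279-63182268), ranked at 95.8 ± 2.30 and had a fold enrichment of up to 17.6 in the deposited lists. At the Piezo2 promoter, by contrast, 2 weak regions were called in 2 libraries each, 1 in 18mo contralateral replicates 1 and 3 and 1 in 3mo IOP replicate 1 and 18mo IOP replicate 1, at mean percentiles of 2.55 and 7.70, and 18mo IOP replicate 3 listed a peak of its own there. A region upstream of the gene, at -4984 bp from the start, was called in 17 libraries and was missing in 3mo contralateral replicate 1.

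The vanilloid TRP genes ranged from none to several open regions. Trpv1, the heat- and capsaicin-gated channel of pain neurons, had no listed peak from 10 kb upstream of its start to its end (chr11:73224292-73261242). Trpv2 (ENSMUSG00000018507.16, chr11:62574486-62600515, plus strand), a cation channel of neurons and immune cells, had a single region (chr11:62575206-62576214), called in all 18 libraries at 61.5 ± 8.19 and lying 1025 bp past the first start of the gene, by a second start. Trpv4 (ENSMUSG00000014158.12, chr5:114622152-114658421, minus strand), which opens on swelling, warmth and lipid messengers and is known in Müller glia and ganglion cells, had 7 consensus regions. Its strongest (chr5:114667190-114668019) lay upstream, with the summit at -9269 bp from the start, and was called in all 18 libraries at 92.2 ± 3.15. Intron regions at 18878 bp (chr5:114639143-114640014) and 7708 bp (chr5:114650456-114650964) from the start were likewise called in 18. The region over the Trpv4 start (chr5:114658128-114658664) was called in 4 libraries, 1 each of the 3mo contralateral, 18mo untreated, 18mo contralateral and 18mo IOP groups, at 16.7 ± 5.24 (SD, n = 4).

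Trpc1, a subunit of store-operated and stretch-responsive cation channels, had the highest-ranked promoter of the channel genes. The gene is ENSMUSG00000032839.13 (chr9:95705082-95750375, minus strand). The region over its start (chr9:95749448-95750637) was called in all 18 libraries and ranked at 94.7 ± 1.59, the second highest mean of the 45 regions after the Piezo2 intron. The intron region called most often (chr9:95712634-95712956) was called in 16 libraries and was absent from the lists of 3mo contralateral replicate 3 and 3mo IOP replicate 2.

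The K2P potassium channel genes had few regions of their own. Kcnk4 (TRAAK; ENSMUSG00000024957.9, chr19:6923966-6934515, minus strand) had 3 consensus regions, and the strongest (chr19:6941254-6942936, 18 libraries, 86.3 ± 2.68) sat at -7333 bp from its start, at the promoters of the neighbouring genes Bad and Gpr137. Close to the Kcnk4 start, an intron region at 634 bp (chr19:6933603-6934371) was called in 13 libraries. At 3mo, 2 of 3 untreated libraries and all contralateral and IOP libraries listed it, and at 18mo 0 of 3 untreated, 3 of 3 contralateral and 2 of 3 IOP libraries did. Kcnk10 (TREK-2; ENSMUSG00000033854.10, chr12:98429437-98578310, minus strand) had a region at an inner start (chr12:98574935-98575124), called in 3mo contralateral replicates 2 and 3 and 18mo contralateral replicates 2 and 3, at 15.9 ± 12.8. At the same start, 18mo IOP replicate 1 listed a peak of its own (chr12:98574736-98574879) at a percentile of 14.2. A second consensus region of Kcnk10, in an exon (chr12:98574403-98574723), was called in 2 3mo contralateral libraries and 1 3mo IOP library. Kcnk2 (TREK-1; ENSMUSG00000037624.15, chr1:189207930-189402273, minus strand) had no consensus region, and its 2 peaks, 1 at a start and 1 in an intron, were listed in 3mo contralateral replicate 2 only, the library with the most peaks.

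Panx1, the ATP-release channel (ENSMUSG00000031934.14, chr9:15002128-15045478, minus strand), had 5 consensus regions and none of them in every library. The region over its start (chr9:15045038-15045815) was called in 9 of 9 libraries of 3mo retinas, and at 18mo in 1 of 3 untreated, 3 of 3 contralateral and 1 of 3 IOP libraries. An intron region at 29743 bp (chr9:15015563-15015986) was called in 8 libraries at 41.4 ± 13.2. It was called in 1 3mo untreated, 2 3mo contralateral, 2 3mo IOP and all 3 18mo contralateral libraries, and in 0 of 3 18mo untreated and 0 of 3 18mo IOP libraries. The remaining 3 regions were called in 2 libraries each.

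The first comparison asked which of these regions differ between old and young control retinas. Piezo2 was the only one of the 10 genes with an unadjusted p under 0.05 in the number of peaks or the calling of a region. The Piezo2 window held 14, 16 and 15 peaks in the 18mo untreated libraries and 15, 13 and 15 in the 18mo contralateral libraries, beside 12, 11 and 13 in 3mo untreated and 9, 16 and 11 in 3mo contralateral libraries. Old libraries lay at 13 to 16 and young ones at 9 to 13 except for 3mo contralateral replicate 2 with 16. The means were 14.7 ± 1.03 and 12 ± 2.37 (SD, n = 6 each; exact permutation test, two-sided, p = 0.0476, Benjamini-Hochberg adjusted p = 1.0 over 17095 gene windows). The call did not hold when any 1 of 8 of the 12 libraries was left out (exact permutation test, p up to 0.0736), with the kind of control as a stratum (p = 0.06) or in lists shortened to an equal number of peaks (p = 0.396). Among all windows, 1.54% had more peaks at 18mo at this threshold and 0% passed the adjustment. In the untreated libraries alone, the 18mo and 3mo counts of Piezo2 did not overlap, as was the case with more peaks at 18mo for 1.74% of windows.

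One Piezo2 intron region (chr18:63175147-63175374) carried part of that difference. It was called in 3 of 3 18mo untreated and 2 of 3 18mo contralateral libraries and in 0 of 6 3mo controls (Fisher's exact test, two-sided, p = 0.0152, adjusted p = 0.424). It was called in 0 of 3 IOP libraries at either age. In the 5 libraries that listed it, the region ranked between 17.1 and 33.0, below the middle of their peaks. Of 6 channel regions for which the test could reach 0.05, this was 1, beside 3.19% of all testable regions called more often at 18mo and 0% past the adjustment. In lists of equal length the difference did not hold (Fisher's exact test, p = 0.455). In untreated libraries, 2 of the 45 regions were called in 3 of 3 at 18mo and in 0 of 3 at 3mo, this Piezo2 region and the Trpc1 intron region shown above (chr9:95709032-95709213), beside 0.892% of all regions. The Trpc1 region was also called in 18mo contralateral replicate 1 and in no other library.

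The second comparison asked what a single IOP elevation did at these genes. By the number of peaks, Panx1 was the only channel gene with an unadjusted p under 0.05. Its window held 2, 2 and 1 peaks in 3mo IOP libraries and 1, 1 and 0 in 18mo IOP libraries, beside 2, 5 and 2 in 3mo contralateral and 2, 2 and 2 in 18mo contralateral libraries. Untreated libraries held 1, 1 and 3 peaks at 3mo and 1, 0 and 1 at 18mo. Their means of 1.67 and 0.667 equalled those of the IOP libraries of the same age, and the contralateral means were higher (3.0 and 2.0). Contralateral against untreated did not pass (exact permutation test within ages, p = 0.085). The IOP and contralateral groups overlapped at 3mo, where 2 IOP and 2 contralateral libraries had 2 peaks, and did not overlap at 18mo. Over both ages, IOP libraries had 1.17 ± 0.753 peaks and contralateral libraries 2.5 ± 1.22 (SD, n = 6 each; exact permutation test within ages, two-sided, p = 0.03, adjusted p = 1.0). The call did not hold without 3mo contralateral replicate 2 or without 3mo IOP replicate 3 (exact permutation test, p = 0.05 each) and not in lists of equal length (p = 0.5). Among all windows 1.04% had fewer peaks with IOP at this threshold and 0% passed the adjustment, while the median window had 0.167 fewer peaks. The number of peaks in the whole list moved in the same direction at 18mo, with 36011 to 48723 peaks in the IOP libraries and 51166 to 60755 in the contralateral libraries, and its part in the result was not tested beyond the lists of equal length.

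At 18mo, 2 of the 45 regions were called in 3 of 3 contralateral and 0 of 3 IOP libraries, the Panx1 intron region at 29743 bp and the Trpv4 intron region at 32616 bp (chr5:114625687-114625981), beside 2.23% of all regions. The Trpv4 region ranked at 29.6, 33.0 and 46.6 in the 18mo contralateral libraries, and the Panx1 region at 49.9, 31.9 and 45.3. The 2 regions differed in the 18mo untreated libraries, of which 3 of 3 called the Trpv4 region and 0 of 3 the Panx1 region. In 3mo libraries the Trpv4 region was called in untreated replicate 4 and contralateral replicate 2 and in 0 of 3 IOP libraries. Over both ages, 4 of 6 contralateral libraries and 0 of 6 IOP libraries listed the Trpv4 region (exact stratified test, two-sided, p = 0.05, the smallest that its number of calls allowed). Another 2 channel regions had calls enough for a p under 0.05, and 0 reached it, beside 5.04% of all testable regions and 0% past the adjustment. The Trpv4 window as a whole held 5, 4 and 4 peaks in 18mo IOP and 6, 6 and 6 in 18mo contralateral libraries. With Panx1 it was 1 of 2 channel windows in which the 18mo IOP libraries lay below all contralateral ones, beside 5.3% of all windows. At 3mo the Trpv4 window held 4, 5 and 4 peaks with IOP and 4, 6 and 4 in contralateral libraries, and the groups overlapped. The difference of the IOP effect between the ages was tested for the 9 channel genes with a peak and passed for 0, with the lowest p at Trpv4 (exact permutation test, two-sided, p = 0.35).

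The third comparison set contralateral eyes against untreated animals, which also differ in the width of their peaks as given above. Kcnk10 had 1, 2 and 1 peaks in 3mo contralateral and 0, 1 and 1 in 18mo contralateral libraries and 0 in all 6 untreated libraries (exact permutation test within ages, two-sided, p = 0.02, adjusted p = 0.322). Trpc1 had 3, 3 and 3 peaks in 3mo contralateral and 6, 3 and 4 in 18mo contralateral libraries, beside 5, 7 and 5 in 3mo untreated and 6, 7 and 7 in 18mo untreated libraries. The Trpc1 groups did not overlap at 3mo and touched at 6 peaks at 18mo (3.67 ± 1.21 against 6.17 ± 0.983, SD, n = 6 each; exact permutation test, p = 0.01, adjusted p = 0.322). Trpv2 had 1 peak in each of the 6 contralateral libraries and 2, 1, 2, 3, 2 and 2 in the untreated ones (exact permutation test, p = 0.02, adjusted p = 0.322).

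All peaks of Trpv2 fell into its 1 merged region, and the region was listed as more than 1 peak in 5 of 6 untreated libraries, in 0 of 6 contralateral libraries and in 18mo IOP replicate 1. With merged regions in place of peaks the difference was 0. For Trpc1 the promoter alone held 2, 3, 2, 2, 2 and 1 peaks in untreated libraries and 1 in each contralateral library, and with merged regions its p was 0.06. The Kcnk10 difference was not of this kind, and it did not hold at a q-value threshold of 0.001 (exact permutation test, p = 0.5) or in lists of equal length (p = 0.2). Among all windows, 7.05% had fewer and 1.22% more peaks in contralateral eyes at p under 0.05 and 0% passed the adjustment. At 3mo, 1 channel window lay wholly below (Trpc1, beside 6.73% of windows) and 1 wholly above (Kcnk10, beside 0.556%). At 18mo, 1 lay wholly below (Trpv2, beside 5.44%) and 1 wholly above (Panx1, beside 4.96%).

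Of the 3 channel regions that could pass the test of calling between contralateral and untreated eyes, 0 did at p under 0.05, beside 18.2% of all testable regions, and 0% of all regions passed the adjustment. At 18mo, 2 of 45 channel regions were called in 3 of 3 contralateral and 0 of 3 untreated libraries, the Kcnk4 intron region near its start and the Panx1 intron region at 29743 bp, beside 3.11% of all regions. For Kcnk4 the ages differed in this respect, with 2 of 3 untreated libraries calling the region at 3mo, and the difference between ages was not tested. In the other 9 directions of the comparisons of 3 against 3 libraries, 0 channel regions had calls in 3 of 3 libraries on one side and 0 of 3 on the other, beside 0.122 to 1.25% of all regions.

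Ranks within a library gave a further readout for the 14 channel regions called in all 18 libraries, each placed as a percentile among the 24751 regions that all libraries called. Between the ages 0 of the 14 regions passed an unadjusted p of 0.05, beside 8.13% of those regions. With IOP, 2 Piezo2 intron regions ranked lower, beside 3.78% of regions, and 0% of regions passed the adjustment. The Piezo2 region at 244658 bp from the start (chr18:63142280-63143146) ranked at 10.6, 11.3 and 8.14 in 18mo IOP and at 22.7, 38.8 and 20.04 in 18mo contralateral libraries. Its 3mo values were 23.5, 15.3 and 14.5 with IOP and 18.8, 22.6 and 25.8 without, and the groups overlapped at that age. The means over both ages were 13.9 ± 5.37 and 24.8 ± 7.28 (SD, n = 6 each; exact permutation test within ages, two-sided, p = 0.015, adjusted p = 0.408). At 119774 bp (chr18:63267032-63267794) the means were 47.1 ± 12.3 and 59.7 ± 8.97 (exact permutation test, p = 0.045, adjusted p = 0.553), a call that did not hold without any 1 of 8 of the 12 libraries (p up to 0.105).

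Contralateral and untreated eyes differed in rank at 6 of the 14 regions at an unadjusted p under 0.05, beside 38.3% of all 24751 regions. Of the 6, 4 ranked higher in contralateral eyes and 2 lower (exact permutation test within ages, two-sided). The Trpv4 regions at -9269 bp and 18878 bp ranked higher, with mean differences of 9.36 and 7.01. Trpv2 (10.8) and the Piezo2 region at 87804 bp (11.9) also ranked higher. The Piezo2 region at 119774 bp, named above for IOP, ranked lower in contralateral than in untreated eyes (-11.3). The Trpv4 intron region at 7708 bp also ranked lower and was the only one of the 6 past the adjustment, which 22.4% of all regions passed. It ranked at 3.93, 13.7 and 23.5 in 3mo contralateral and at 14.8, 15.5 and 7.05 in 18mo contralateral libraries, all below the untreated libraries at 25.5 to 37.3. The means were 13.1 ± 6.91 and 29.9 ± 4.23 (SD, n = 6 each; exact permutation test within ages, two-sided, p = 0.005, the smallest that 400 arrangements allow, adjusted p = 0.0309). With the percentile taken among all peaks of a library in place of the common regions, 2 of 14 regions had an unadjusted p under 0.05 and 0 passed the adjustment. The IOP libraries ranked this region at 3.60 to 8.80 at 3mo and at 17.1 to 40.0 at 18mo.

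**Figure D4:**
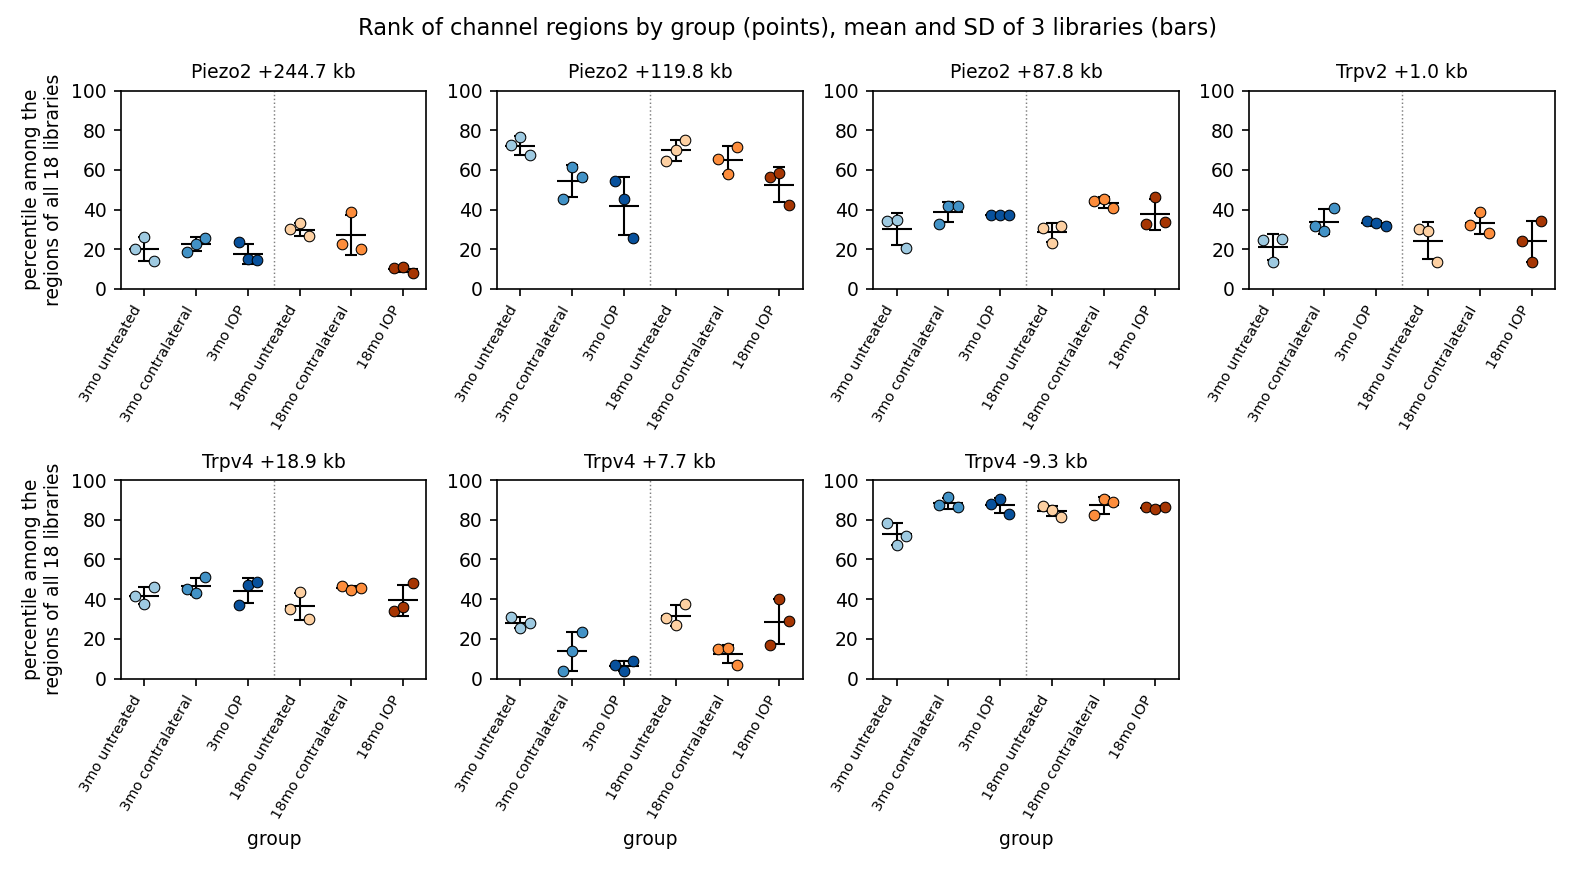
Percentile of 7 channel regions among the 24751 regions called in all 18 libraries (y axis, 0 to 100) for each library (points) of the 6 groups, with mean and SD of 3 libraries (bars). The contralateral points of the Trpv4 region 7708 bp past the start lie below all untreated points at both ages, and the 18mo IOP points of the Piezo2 region 244658 bp past the start lie below all 18mo contralateral points.

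Among 23 further channels that respond to stretch or pressure, the promoters of 7 (30.4%) were called in 18 libraries, of 6 (26.1%) in some and of 10 (43.5%) in none. The shares over all protein-coding genes were 47.6%, 9.46% and 42.9%, and the difference was not tested. Trpm3, a channel of the retinal pigment epithelium and Müller glia, was called in 13 libraries and in 0 of 3 18mo untreated ones. How many of all promoters share this pattern was not counted. Tmem63a was called in 10 libraries, Trpc6 in 8, Asic1 in 1, Asic2 in 16 and Asic3 in 14. In the contralateral against untreated comparison the window of Asic2, an acid-sensing channel subunit, had 9 more peaks (exact permutation test, unadjusted p = 0.025) and that of Panx2, a relative of Panx1, 1.17 fewer (exact permutation test, unadjusted p = 0.03). Beside these 2 of 23 windows, 1.22% of all windows had more and 7.05% fewer peaks, and 0% passed the adjustment. In the comparisons of age and of IOP 0 of the 23 windows had an unadjusted p under 0.05.

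Among the partners of these channels and the genes of ATP signalling, 2 of 8 promoters in each list were called in some libraries and not in others. Over all protein-coding genes the share was 9.46%, and lists of 8 genes are too short to compare with it. Of 8 partner genes 3 promoters were called in 18 libraries, 3 in none, and Mdfic, which encodes an auxiliary subunit of Piezo channels, and Tmie, of the hair cell channel, in 2 each. Of 8 genes of ATP signalling, P2rx4, Entpd1 and Entpd2 were called in 18 libraries, and P2rx7, P2ry12 and Nt5e in 0. The P2Y receptor genes P2ry1 and P2ry2 were called in 15 libraries each, and in all 12 libraries of contralateral and IOP eyes. The share of all promoters with this pattern was not counted. Entpd1 and Nt5e, enzymes that degrade extracellular ATP and AMP, had 1.33 and 2.00 fewer peaks in contralateral than in untreated libraries (exact permutation tests, unadjusted p = 0.005 and p = 0.015), in the direction that 7.05% of all windows took, and 0 of the 8 partner windows passed in any comparison.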

How the data were processed

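ATAC-seq peak lists of 18 libraries of bulk mouse retina were analysed, 3 in each of 6 groups taken from the labels (age by untreated, contralateral or IOP). Per the labels, the submitters' processing notes name STAR 2.7.8a, MACS2, bedtools 2.29.2, HOMER and edgeR, and the build mm10. The extract text describes crosslinking and an antibody to a histone mark, although the samples are titled ATAC-seq. The lists deposited by the authors hold, for each library separately, peak positions, a display score, the fold enrichment (a ratio over local background), −log10 p-values and −log10 q-values, and the summit. Reads per region are not used here, so the readouts are the calling of a region, the number of peaks in a gene window, and the percentile of a region by −log10 q-value within its library. Depth is not known from such lists, and a region that was not called may still be open below the threshold.

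Peaks overlapping by at least 1 bp were merged over libraries, and regions in at least 2 libraries were kept as consensus regions. Windows ran from 10 kb upstream of the gene start to the gene end. Calling was tested with Fisher's exact test (18mo against 3mo controls) or its version stratified by age (IOP against contralateral, contralateral against untreated), and peak numbers and ranks with exact permutation tests, two-sided, the same strata applying. For calling, the Benjamini-Hochberg adjustment ran over the regions whose calls allowed a p under 0.05. These were 9868 regions for age, 5572 for IOP and 6205 for contralateral against untreated. Peak numbers were adjusted over the 17095 gene windows with a peak, and ranks over the 24751 regions called in all 18 libraries. With 3 libraries against 3 the smallest two-sided p is 0.1, so those comparisons are given by overlap alone. The members and lists were chosen with earlier results of these data known. Named by rule were the 10 genes, every region at one of their promoters, the region away from the promoter called in the most libraries for each gene, every region with an unadjusted p under 0.05 or with calls in 3 of 3 against 0 of 3 libraries, and, of other channels, partners and ATP genes, those called in some libraries or passing a test. Further regions were described after their values had been seen. Alternatives were a stricter q-value, lists of equal length, other windows, promoters, ranks and overlaps, strata by kind of control or shortest peak, a replicate block and leaving out each library. Merged regions in place of peaks were added after seeing the data. The scripts were checked on simulated data and used Python 3.11.15, numpy 2.4.6, pandas 2.3.3 and scipy 1.17.1. Promoter sequences came from RefSeq (GRCm38.p6), which matched 15 promoters of 9 of the 10 genes. The values of some marker genes are not reported here.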

Additional observations from a re-analysis of the deposited data

Results flagged for a closer look

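In groups of 6 control libraries of one age, the highest or lowest library stood apart from the other 5 in 4 of 48 groups of values, by a test of the gap over the range. Its rate of about 1 in 20 groups by chance applies to continuous values and not to small counts. Where 5 libraries hold the same count, any other count passes, as in the windows of Kcnk2 and Kcnk4. The Kcnk2 window held 2 peaks in 3mo contralateral replicate 2 and 0 in the other 3mo controls. The Kcnk4 window held 3 peaks in 18mo contralateral replicate 3 and 2 in the other 18mo controls. The Piezo2 intron region chr18:63160237-63161176 ranked at percentile 67.0 in 18mo untreated replicate 4, above the other 18mo controls. The Piezo2 intron region chr18:63207638-63208275 ranked at percentile 14.4 in 18mo contralateral replicate 1, below the other 18mo controls. The ranks are percentiles among the regions called in all 18 libraries.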

How the results depend on the processing

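Of 163 recomputed counts of channel genes or regions, 111 stayed within 1.5 times the reported count and 52 did not. Of 248 recomputed single values, 189 kept their direction and their side of the threshold, 58 kept the direction alone and 1 turned. In lists of equal length (39202 peaks for age, 36011 for IOP, 39202 for contralateral against untreated), the counts became 0 for region calls and 0 for peak numbers with age, 0 for peak numbers with IOP and 1 for region calls in contralateral eyes. At a q-value of 0.001 the peak number counts were 0 with IOP and 1 in contralateral eyes. Scaled to 50000 peaks, they were 2 with age and 2 with IOP. With the kind of control as a stratum, and with the class of the shortest peak as one, 0 peak numbers passed with age. That class as a stratum gave 1 rank with age and 1 with IOP, and it could not be fitted to contralateral against untreated. Ranks by fold, and ranks among all peaks, each gave 1 with age, and ranks among all peaks gave 2 in contralateral eyes. Regions of which a peak covered 50% gave 3 calls in contralateral eyes, and merged regions, an alternative chosen after seeing the data, gave 1 peak number there. The rank of Trpv4 chr5:114639143-114640014 in contralateral against untreated eyes turned from 7.01 to -1.04 by fold. The cause was not tested.

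Leaving out each library gave 1 to 2 region calls, 0 to 1 peak numbers and 0 to 2 ranks with age, 0 to 2, 0 to 1 and 1 to 2 with IOP, and 0 to 2, 3 to 4 and 4 to 7 in contralateral eyes. Replicate numbers were not taken as pairs, as the labels do not say whether they mark eyes of one animal. The deviations of same-numbered IOP and contralateral libraries correlated at -0.0898 to 0.0974 in 6 pairs, and 3 of 6 IOP libraries correlated best with their own number. A differently numbered pair, 3mo IOP replicate 1 and 3mo contralateral replicate 2, reached 0.144. These correlations cannot decide whether eyes were paired, and the main tests of IOP treat the libraries of an age as independent. With the replicate block, 0 region calls, 0 peak numbers and 0 ranks passed with IOP (exact permutation test, Panx1 p = 0.0625, Piezo2 p = 0.0625 and p = 0.156). Peak lists hold no depth, which limits every statement on a region that was not called.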
